A study of Mus musculus with 15 samples.

Results

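The receptors for erythropoietin and for stem cell factor, the JAK2-STAT5 relay behind them and the feedback genes that STAT5 switches on were followed across sorted fetal liver cells of the mouse. The set was chosen by name, with earlier results of these data known. It held 10 genes: Epor, Kit, Jak2, Stat5a, Stat5b, Cish, Socs2, Socs3, Pim1 and Lyn. Each gene was read from its brightest probe set (highest mean over the arrays), among probe sets listed with a single gene symbol. This gave values for 9 of the 10 genes, of 19938 genes in all. Lyn, which encodes a SRC family kinase bound to both receptors, has no such probe set in the platform's gene table and was not analysed here.

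Erythropoietin brings EPOR chains together on the surface of red cell precursors, the bound kinase JAK2 phosphorylates the receptor, and STAT5A and STAT5B dock there, become phosphorylated and enter the nucleus. Their targets include the SH2-domain inhibitors CISH, SOCS2 and SOCS3, which damp cytokine receptors, and the survival kinase PIM1. KIT is the receptor tyrosine kinase for stem cell factor, present on stem cells, early progenitors and mast cells. Fetal liver is the main site of red cell production at this stage, and KIT is known to decline there as precursors mature while EPOR carries them through the next divisions.

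The cells came from livers of FVB/NJ embryos at embryonic day E14.5, wild type (WT) or labelled as Klf3 knockout (KO); KLF3 is a zinc finger repressor that binds CACCC boxes. No treatment or transgene is named. Antibody beads against TER119, an antigen of maturing red cell precursors, split each liver suspension into a TER119+ fraction, which the column retained, and a TER119- fraction, which was depleted of those cells. Total RNA was hybridised to 15 Affymetrix MoGene 1.0 ST arrays: 4 WT TER119-, 4 KO TER119-, 4 WT TER119+ and 3 KO TER119+. Whether the replicates are separate embryos, litters or only separate hybridisations is not in the labels, so a p-value here speaks for the scatter of these arrays, part of which may be technical. Nor do the labels say which part of Klf3 was deleted. Its probe set, which may lie outside that part, did not separate the genotypes (KO minus WT 0.24 with a 95% interval of -0.19 to 0.68 in TER119+, and -0.04 with an interval of -0.44 to 0.36 in TER119-), so the arrays are called KO-labelled here.

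Values are log2 expression on a scale in which 1 unit is a 2-fold change. Array medians lay between 5.28 and 5.43, and dim signals are compressed on this scale. Both fractions were mixtures. Slc4a1, the red cell anion exchanger gene, stood at 13.19 to 13.31 in TER119+ and 7.45 to 8.82 in TER119- arrays. The mean of 19 measured red cell genes was 8.05 to 8.29 in WT TER119-, 8.09 to 8.44 in KO-labelled TER119-, 10.70 to 10.98 in WT TER119+ and 10.89 to 10.96 in KO-labelled TER119+ arrays. The mean of 20 hepatocyte-lineage genes was 5.74 to 7.88, 5.57 to 6.94, 10.86 to 11.65 and 11.04 to 11.55 in the same order. The genes of albumin and alpha-fetoprotein, Alb and Afp, reached 13.70 and 13.09 in TER119+ cells, against at most 11.35 and 10.33 in TER119- cells. The 14 macrophage genes averaged 8.68 to 9.07 in TER119+ and 5.65 to 5.91 in TER119- arrays. The 14 genes of neutrophils and their precursors, led by Mpo at 10.82 to 11.62, averaged 9.88 to 10.60 in TER119- and 5.04 to 5.72 in TER119+ arrays. Most mast cell and most stem and progenitor genes were also higher in TER119- cells, and most endothelial and stromal genes in TER119+ cells. The titles follow a single scheme, but the array names given in the sample descriptions are built differently for each fraction, so any batch that coincided with the fraction cannot be told apart from it. The part of these other cells in the values below was not tested, except within a fraction where a fit is named. In such sorted mixtures fewer cells of a type and less RNA per cell cannot be told apart.

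Between the fractions, 7 of the 9 genes differed in WT cells, 5 higher and 2 lower in TER119+. Epor, Pim1, Cish, Jak2 and Socs3 were higher, Kit and Stat5a were lower, and Stat5b and Socs2 did not pass. Calls are limma's moderated 2-sided test with Benjamini-Hochberg adjustment over all 19938 genes at a threshold of 0.05. By the same rule 52.6% of all genes differed, 23.5% higher and 29.1% lower, so that a call in this contrast is common. The median difference was 0.57 over the 9 genes and -0.09 over all genes. In KO-labelled cells 6 of the 9 differed, Epor, Pim1, Cish and Socs2 higher and Kit and Stat5a lower, where 49% of all genes did (22.6% higher and 26.5% lower). The 2 fractions thus stood apart most in Pim1, Epor and Kit.

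**Figure D1:**
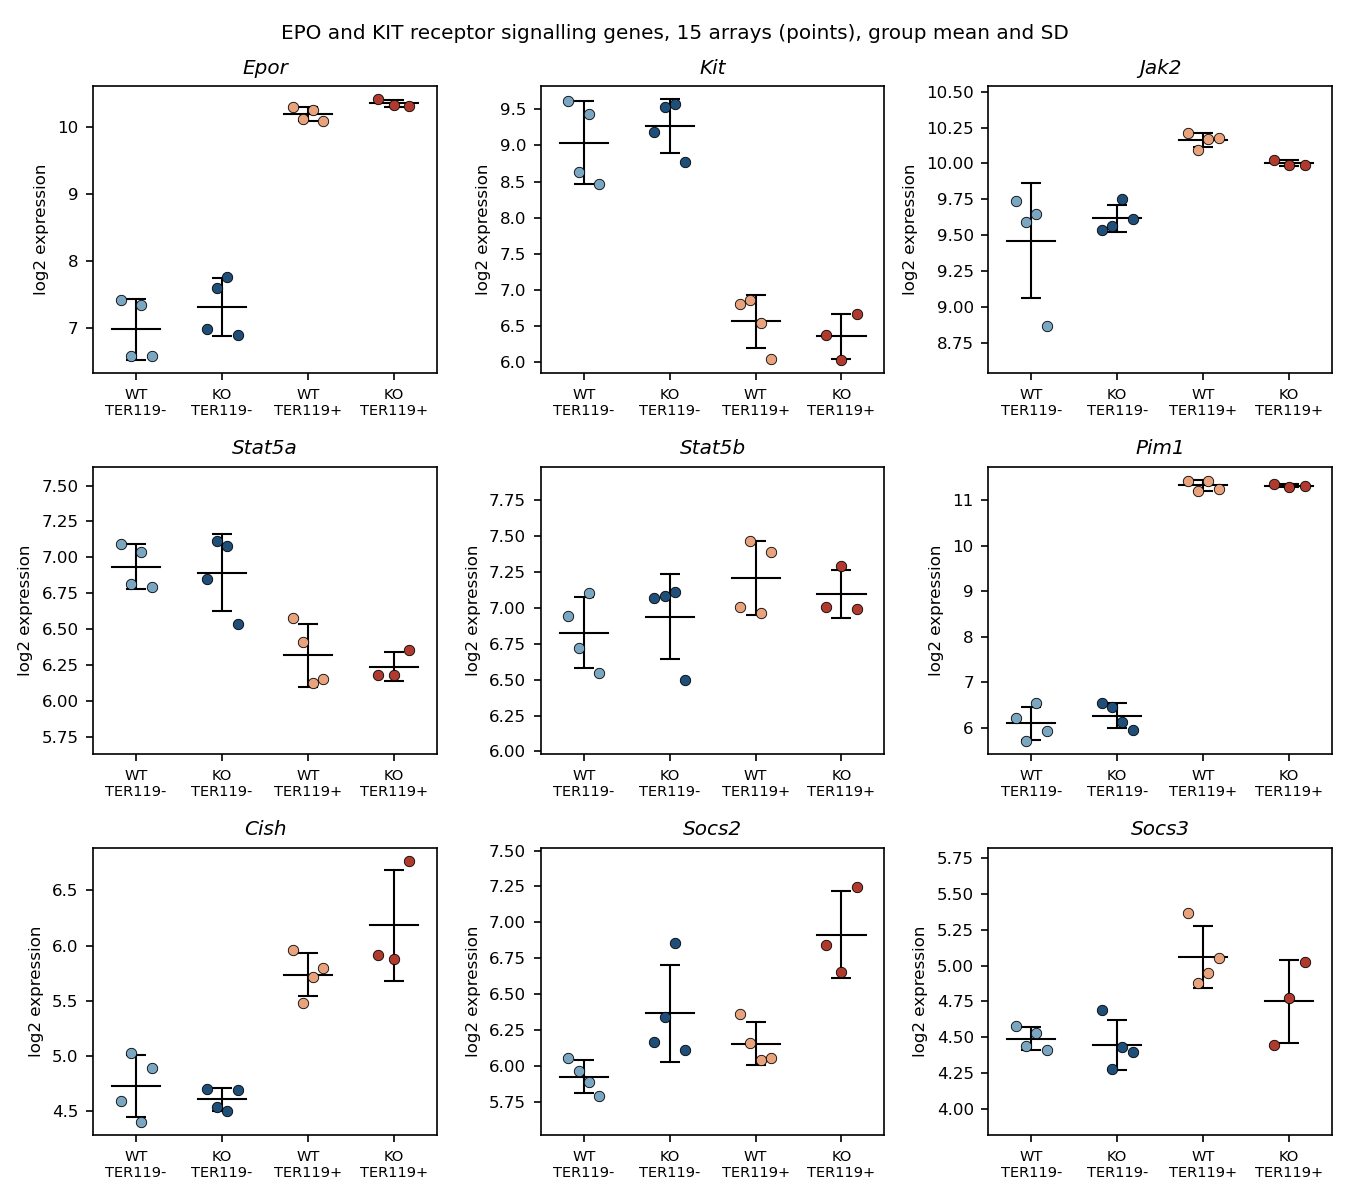
Log2 expression (vertical axes, each panel on its own scale that does not start at 0) of the 9 measured genes on the 15 arrays, grouped along the horizontal axes by genotype label and TER119 fraction; points are arrays, long bars group means and whiskers 1 SD. Epor and Pim1 lie above 10 and 11 in every TER119+ array, Kit lies above 8.4 in every TER119- array, and Socs2 is highest in the 3 KO-labelled TER119+ arrays apart from KO-labelled TER119- replicate 3.

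Epor was low in TER119- and high in TER119+ cells. In replicate order its level was 7.41, 6.58, 7.33 and 6.58 in WT TER119- arrays and 6.99, 7.59, 7.76 and 6.88 in KO-labelled TER119- arrays. It was 10.30, 10.12, 10.26 and 10.09 in WT TER119+ arrays and 10.42, 10.33 and 10.32 in KO-labelled TER119+ arrays. All TER119+ arrays stood over 2 units above all TER119- arrays, and the TER119+ arrays were much closer to each other (SD 0.10 in WT, n = 4) than the TER119- arrays (SD 0.46, n = 4). The difference between fractions was 3.22 in WT (standard error, SE, 0.21; 9.31-fold; adjusted p = 1.32e-09) and 3.05 in KO-labelled cells (SE 0.22; 8.29-fold; adjusted p = 7.17e-09). With the mean of the hepatocyte genes, centred within each fraction, as a covariate the WT difference was 3.06. A covariate centred in this way cannot take out a hepatocyte difference between the fractions, so that part was not tested. From high to low, the groups ran KO-labelled TER119+, WT TER119+, KO-labelled TER119- and WT TER119-; the last 2 overlapped, and the first 2 did not overlap but did not differ by the test.

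The stretch of 150 bases before the annotated start of Epor is shown because the gene changed 9.31-fold between the fractions and because KLF proteins bind CACCC boxes. It lies at chr9:21963577-21963726 on the minus strand of GRCm38.p6 (RefSeq), written 5′ to 3′ along the gene. Capitals mark a CACCC box (CCNCACCC) that starts at position -124 from the start site. They also mark a GATA motif (AGATAA) on the opposite strand, printed as its reverse complement TTATCT, whose leftmost base is at position -54.
Epor: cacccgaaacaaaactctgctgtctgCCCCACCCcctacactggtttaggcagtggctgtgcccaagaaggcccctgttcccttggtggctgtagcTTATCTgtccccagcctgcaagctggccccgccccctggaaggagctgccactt
Searched on both strands, the CACCC box letters occurred in 16.6% and the GATA letters in 11.2% of 32851 RefSeq windows of 300 bases around start sites, so each match alone is common. A match is a description of the letters and not a measured binding site.

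Kit showed the opposite pattern. Its level was 9.62, 8.64, 9.44 and 8.47 in WT TER119- arrays and 9.19, 9.53, 9.58 and 8.77 in KO-labelled TER119- arrays. In TER119+ cells it was 6.80, 6.87, 6.54 and 6.05 in WT arrays and 6.38, 6.03 and 6.66 in KO-labelled arrays. The fractions did not overlap, whereas the genotypes overlapped in each fraction. Kit was lower in TER119+ cells by a log2 difference of -2.48 in WT (SE 0.26; 5.57-fold; adjusted p = 4.84e-07) and of -2.91 in KO-labelled cells (SE 0.28; 7.52-fold; adjusted p = 1.92e-07). Mast cells and early progenitors also carry KIT. Of 9 mast cell and basophil genes 6 were lower in WT TER119+ cells, 1 was higher and 2 did not pass (median difference -1.14). The protease gene Cpa3 was among the lower ones, at 9.58 to 10.35 in TER119- and 4.74 to 4.97 in TER119+ arrays. Of 12 stem and progenitor genes 11 were lower, 0 higher and 1 did not pass (median -1.34), where 29.1% of all genes were lower. The part of mast cells and of progenitors in the Kit difference was not tested.

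The ligands of both receptors differed from each other. Epo, which encodes erythropoietin, was low everywhere, at 3.90 to 4.45 in TER119- and 4.07 to 4.56 in TER119+ arrays, and no comparison of it passed (TER119+ minus TER119- 0.10 in WT, adjusted p = 0.556). Kitl, which encodes stem cell factor, was 4.52, 4.82, 4.74 and 5.38 in WT TER119- arrays and 6.96, 7.46, 7.21 and 7.61 in WT TER119+ arrays. In KO-labelled cells it was 4.61, 4.48, 4.38 and 5.04 in TER119- and 7.48, 7.53 and 7.25 in TER119+ arrays. Kitl was thus higher in the fraction in which its receptor was lower, by 2.44 in WT (SE 0.19; adjusted p = 9.07e-09) and 2.79 in KO-labelled cells (SE 0.20; adjusted p = 5.05e-09). The stromal and stellate genes, a known source of stem cell factor, averaged 6.26 to 7.37 in TER119+ and 4.85 to 5.29 in TER119- arrays, and their part in the Kitl difference was not tested.

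Jak2, the kinase that EPOR depends on, was modestly higher in TER119+ cells. Its level was 9.74, 9.60, 9.65 and 8.87 in WT TER119- arrays and 10.21, 10.10, 10.17 and 10.18 in WT TER119+ arrays. KO-labelled arrays gave 9.54, 9.57, 9.75 and 9.61 in TER119- and 10.03, 9.99 and 9.99 in TER119+ cells. The fractions did not overlap in either genotype, and WT TER119- replicate 4 was far below the other arrays of its group. The difference was 0.70 in WT cells (SE 0.14, adjusted p = 0.000598) and 0.38 in KO-labelled cells (SE 0.16, adjusted p = 0.0523), which missed the threshold; the latter passed in 11 of 26 alternative settings, among them without WT TER119- replicate 4, with adjusted p-values over all 26 from 0.000804 to 0.132. The difference between these effects was -0.32 (95% interval -0.77 to 0.13) and did not pass.

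Stat5a and Stat5b encode the transcription factors that JAK2 activates. Stat5a was 7.09, 6.81, 7.04 and 6.79 in WT TER119- and 6.58, 6.41, 6.12 and 6.15 in WT TER119+ arrays, without overlap. In KO-labelled cells it was 6.85, 7.11, 7.08 and 6.54 in TER119- and 6.18, 6.18 and 6.36 in TER119+ arrays, again without overlap. Stat5a was lower in TER119+ cells, with differences of -0.62 in WT (SE 0.14, adjusted p = 0.00109) and -0.66 in KO-labelled cells (SE 0.15, adjusted p = 0.00130).

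Stat5b, its near-identical partner, was 6.94, 6.72, 7.11 and 6.55 in WT TER119- and 7.01, 7.47, 6.97 and 7.39 in WT TER119+ arrays. It was 7.07, 7.09, 7.11 and 6.50 in KO-labelled TER119- and 7.01, 7.29 and 6.99 in KO-labelled TER119+ arrays. All 4 groups overlapped with a neighbour, and the differences between fractions were 0.38 in WT (SE 0.16, adjusted p = 0.0616) and 0.16 in KO-labelled cells (SE 0.18, adjusted p = 0.507). The WT value passed without WT TER119+ replicate 1 (0.45, adjusted p = 0.0472) or 3 (0.46, 0.0383), WT TER119- replicate 3 (0.47, 0.0277) or KO-labelled TER119- replicate 4 (0.38, 0.0311), and was 0.18 (adjusted p = 0.329) without the 3 TER119- arrays described below. Whether the fractions differ in Stat5b was therefore not settled by these arrays.

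Pim1, the survival kinase gene, differed more between the fractions than any other gene of the set. It was 6.21, 5.70, 6.54 and 5.91 in WT TER119- and 6.54, 6.44, 6.11 and 5.95 in KO-labelled TER119- arrays. In TER119+ cells it was 11.43, 11.20, 11.43 and 11.26 in WT and 11.36, 11.29 and 11.32 in KO-labelled arrays. The lowest TER119+ array stood over 4 units above the highest TER119- array, and within TER119+ cells the 7 arrays lay within 0.3 units of each other. The differences were 5.24 in WT (SE 0.16; 37.7-fold; adjusted p = 2.36e-13) and 5.06 in KO-labelled cells (SE 0.17; 33.4-fold; adjusted p = 1.05e-12).

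Cish, which encodes a STAT5-induced inhibitor that binds EPOR, was also higher in TER119+ cells, at low levels. It was 4.59, 5.02, 4.40 and 4.89 in WT TER119- and 4.70, 4.54, 4.50 and 4.69 in KO-labelled TER119- arrays. The TER119+ arrays gave 5.96, 5.48, 5.71 and 5.80 in WT and 5.91, 5.88 and 6.77 in KO-labelled cells. Every TER119+ array was above every TER119- array, and KO-labelled replicate 3 was the highest of all. The differences were 1.01 in WT (SE 0.18; 2.02-fold; adjusted p = 0.000157) and 1.58 in KO-labelled cells (SE 0.20; 2.98-fold; adjusted p = 3.28e-06).

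The start of Cish is shown because it holds a pair of STAT5 elements (TTCNNNGAA), in capitals, at the first base of the annotated transcript and 11 bases further on. The stretch of 170 bases lies at chr9:107296509-107296678 on the plus strand of GRCm38.p6 (RefSeq). That of Socs3, the other searched member with a STAT5 element, follows with 180 bases at chr11:117969367-117969546 on the minus strand. Its element starts at position -154 from the start site.
Cish: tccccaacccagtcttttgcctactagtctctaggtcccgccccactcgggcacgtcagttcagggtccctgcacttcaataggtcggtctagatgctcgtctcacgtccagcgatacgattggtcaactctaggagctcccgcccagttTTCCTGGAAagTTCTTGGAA
Socs3: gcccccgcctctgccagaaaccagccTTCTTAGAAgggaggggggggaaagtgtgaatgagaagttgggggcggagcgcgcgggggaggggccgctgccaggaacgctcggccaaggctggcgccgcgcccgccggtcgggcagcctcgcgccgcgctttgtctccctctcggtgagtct
STAT5 elements occurred on either strand in 8.3% of the 32851 windows. RefSeq windows were given for 8 of the 10 genes, and Socs2 and Lyn, which had none, were not searched. Those of Kit, Jak2, Stat5a, Stat5b and Pim1 held none of the 3 motifs in the 300 bases searched. That says only that these letters are not in that stretch.

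Socs3, an inhibitor that acts on JAK2 and on EPOR itself, was also dim. It was 4.58, 4.44, 4.53 and 4.41 in WT TER119- and 5.36, 4.88, 4.95 and 5.05 in WT TER119+ arrays. KO-labelled arrays gave 4.69, 4.28, 4.43 and 4.39 in TER119- and 4.45, 4.77 and 5.03 in TER119+ cells, which overlapped. The difference passed in WT, at 0.57 (SE 0.13, adjusted p = 0.00172), and not in KO-labelled cells, at 0.30 (SE 0.14, adjusted p = 0.0977). The latter passed without KO-labelled TER119+ replicate 1 (0.45, adjusted p = 0.0209) or KO-labelled TER119- replicate 1 (0.38, adjusted p = 0.0452) and in 4 of 26 alternative settings in all, with adjusted p-values from 0.0209 to 0.764. A second Socs3 probe set, which shares no listed transcript with the chosen one, lay between 4.12 and 4.66 in every array and had a WT difference of -0.12 (SE 0.10, adjusted p = 0.326), so the rise was seen in only 1 of the 2 probe sets.

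Socs2 encodes an inhibitor best known for restraining growth hormone signalling. Its level was 6.05, 5.97, 5.89 and 5.79 in WT TER119- and 6.36, 6.16, 6.04 and 6.05 in WT TER119+ arrays. It was 6.17, 6.34, 6.85 and 6.11 in KO-labelled TER119- and 6.84, 6.65 and 7.25 in KO-labelled TER119+ arrays. In each fraction every KO-labelled array was above every WT array. Between fractions Socs2 differed by 0.23 in WT cells (SE 0.16, adjusted p = 0.237) and by 0.55 in KO-labelled cells (SE 0.17, adjusted p = 0.0125), where the groups overlapped. The latter was lost without KO-labelled TER119+ replicate 3 (0.38, adjusted p = 0.0951), and on a second Socs2 probe set the same difference was 0.09 (SE 0.15, adjusted p = 0.681).

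**Figure D2:**
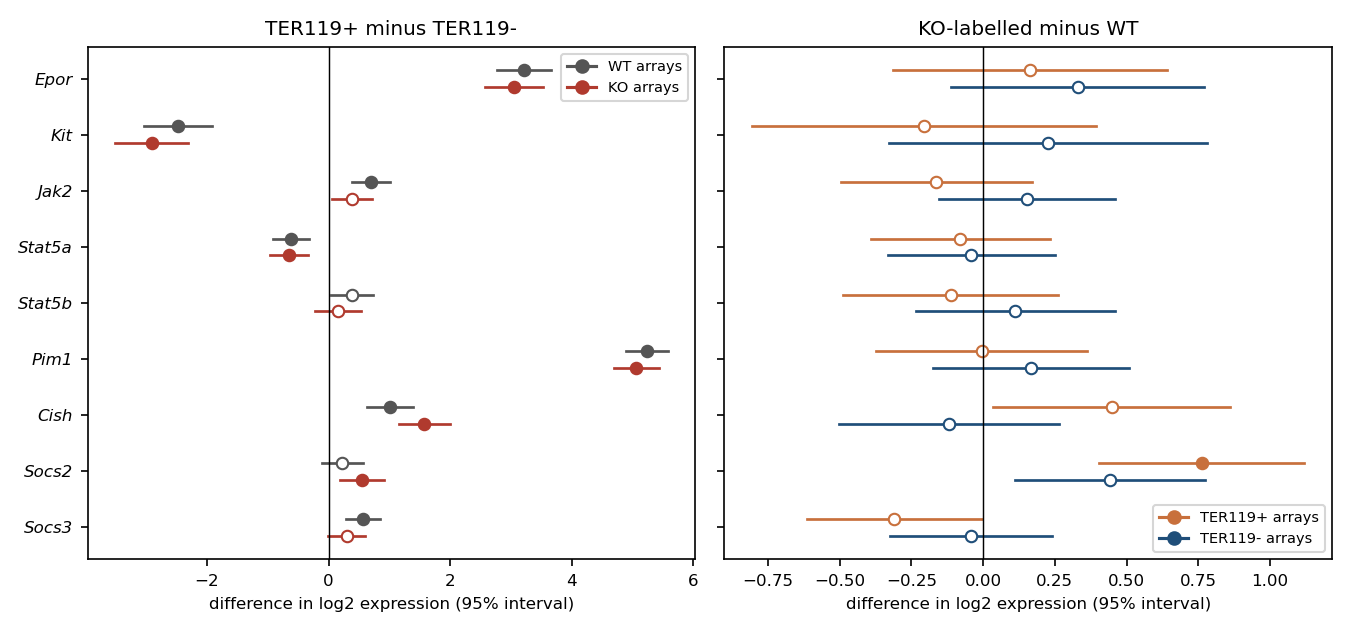
Differences in log2 expression with 95% intervals for each gene: TER119+ minus TER119- in WT and in KO-labelled arrays (left) and KO-labelled minus WT in TER119+ and in TER119- arrays (right; a narrower scale). Filled points passed the adjusted threshold of 0.05; in the genotype comparisons only Socs2 in TER119+ cells, at 0.76, did.

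The next comparison asked whether the label of Klf3 knockout changed these genes. In TER119+ cells Socs2 was the only one of the 9 to pass, where 1.02% of all genes did. It rose by 0.76 in KO-labelled cells (SE 0.17; 95% interval 0.40 to 1.12; 1.70-fold; adjusted p = 0.0375; 4 WT against 3 KO-labelled arrays). The call was close to the threshold. It was lost with the replicate number as a block (0.71, adjusted p = 0.0693), with arrays centred on their medians (0.75, 0.0587), with the sex of the array as a factor (0.75, 0.0670) and with the mean of both Socs2 probe sets (0.54, 0.0906). It was also lost without KO-labelled TER119+ replicate 1 (0.80, adjusted p = 0.119) or 3 (0.60, 0.290), without WT TER119+ replicate 2 (0.76, 0.0923), 3 (0.72, 0.132) or 4 (0.73, 0.122), and without KO-labelled TER119- replicate 2 (0.76, 0.0594) or WT TER119- replicate 2 (0.76, 0.0574). Over the 27 alternative settings the difference stayed above 0, between 0.31 and 0.89, with adjusted p-values from 0.00449 to 0.989.

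The largest of those p-values came from the other Socs2 probe set. The platform's table lists 7 transcripts for the chosen probe set and 5 for the other, of which 4 are shared. The other one read 5.74, 5.07, 5.54 and 5.32 in WT TER119+ and 5.63, 5.56 and 6.01 in KO-labelled TER119+ arrays, which overlapped. Its difference was 0.31 (SE 0.15, adjusted p = 0.989). In TER119- cells it read 5.54, 5.42, 5.46 and 5.83 in WT and 5.54, 5.62, 5.64 and 5.77 in KO-labelled arrays, a difference of 0.08 (SE 0.14, adjusted p = 0.856). The rise in Socs2 thus rests on the brighter of its 2 probe sets.

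**Figure D3:**
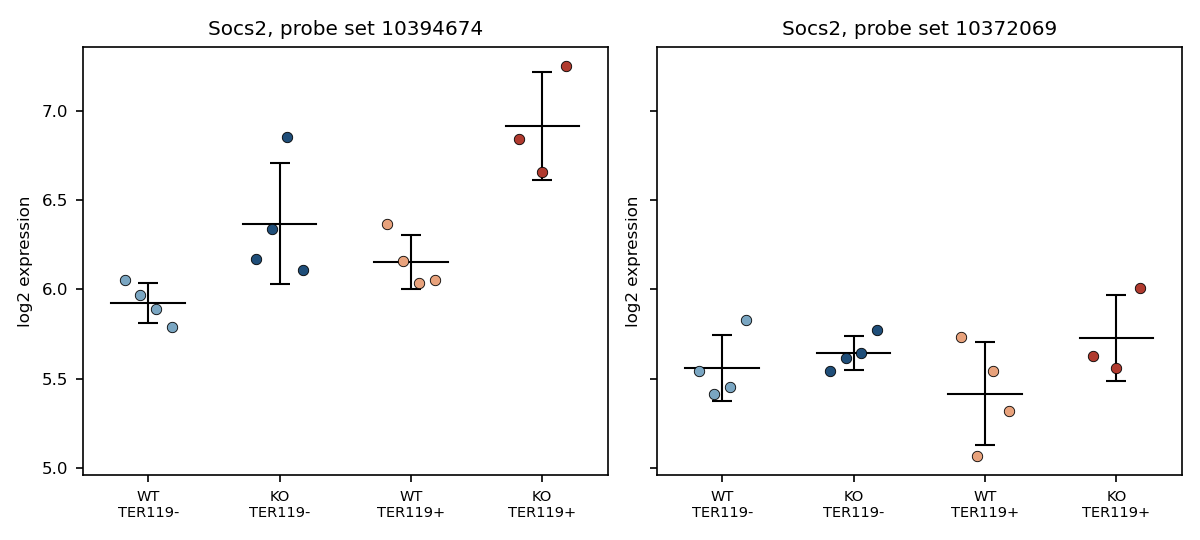
Log2 expression (vertical axis, shared, not from 0) of the 2 Socs2 probe sets on the 15 arrays by group; points are arrays, long bars means and whiskers 1 SD. On the chosen probe set (left) the 3 KO-labelled TER119+ arrays (6.65 to 7.25) lie above all WT TER119+ arrays (6.04 to 6.36); on the other (right) the same groups overlap.

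None of the other 8 genes passed in TER119+ cells. At an unadjusted p under 0.05 (limma) there were 3 of the 9, Socs2, Cish and Socs3, and 5.33% of all genes. Cish was 0.45 higher (95% interval 0.03 to 0.86, adjusted p = 0.825) and Socs3 -0.31 (interval -0.62 to -0.01, adjusted p = 0.916), with overlapping arrays. Without KO-labelled TER119+ replicate 3 the Cish difference was 0.16. Epor was 0.16 (interval -0.31 to 0.64), Kit -0.21 (-0.81 to 0.39), Jak2 -0.16 (-0.49 to 0.17) and Stat5a -0.08 (-0.39 to 0.23). Stat5b was -0.11 (-0.49 to 0.26) and Pim1 -0.005 (-0.37 to 0.36). Those intervals leave room for changes up to 0.81 in Kit and about 0.4 in Pim1, so smaller changes could not be seen with this number of arrays. The arrays of the genotypes did not overlap for 3 of the 9 genes, Epor, Jak2 and Socs2, where 10.1% of all genes had no overlap. The 20 hepatocyte genes gave 0 calls in this comparison, and with their mean as a covariate Socs2 differed by 0.79 (adjusted p = 0.00449). The 9 megakaryocyte and platelet genes averaged 9.31 to 9.57 in WT and 8.49 to 8.88 in KO-labelled TER119+ arrays; their part in the Socs2 difference was not tested.

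In TER119- cells 0 of the 9 genes passed and 0.0853% of all genes did. At an unadjusted p under 0.05 (limma) there was 1 of the 9, and 7.56% of all genes. Socs2 was again the gene with the lowest p, 0.44 higher in KO-labelled cells (SE 0.16; interval 0.11 to 0.77; adjusted p = 0.636) with no overlap between genotypes, as for 2.63% of all genes. Epor was 0.33 (interval -0.11 to 0.77), Kit 0.23 (-0.33 to 0.78), Pim1 0.17 (-0.17 to 0.51) and Jak2 0.15 (-0.15 to 0.46). Stat5b was 0.11, Stat5a and Socs3 both -0.04 and Cish -0.12, each with an interval that held 0. The 4 WT TER119- arrays were all male by their sex-linked genes and the KO-labelled ones 1 male and 3 female. With sex as a factor Socs2 differed by 0.38 and Epor by 0.44, neither past the threshold. The WT TER119+ arrays were 2 male and 2 female and the KO-labelled TER119+ arrays 1 male and 2 female. Sex was thus also uneven between the WT fractions. With sex as a factor the WT fraction differences were 3.29 for Epor, -2.36 for Kit and 5.28 for Pim1, all still called.

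No difference of the genotype effect between the fractions passed for the 9 genes (limma), where 0.436% of all genes passed. At an unadjusted p under 0.05 there was 1 of the 9, and 4.27% of all genes. For Socs2 the difference of effects was 0.32 (interval -0.17 to 0.81) and for Cish 0.57 (interval 0.003 to 1.13, adjusted p = 0.999). A Socs2 rise seen in TER119+ and not called in TER119- cells is therefore not shown to be particular to TER119+ cells.

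The TER119- arrays varied more than the TER119+ arrays, and 3 of them, WT replicates 2 and 4 and KO-labelled replicate 4, stood apart on the first principal component of the 8. They had the 3 lowest values of Kit among the TER119- arrays, 8.64, 8.47 and 8.77, and the 3 lowest of Epor, 6.58, 6.58 and 6.88. The mean of the 9 genes was 6.61, 6.47 and 6.60 in these arrays and 6.86 to 7.02 in the other 5. Cish did not share this, at 5.02, 4.89 and 4.69 in these arrays and 4.40 to 4.70 in the other 5. Low values there were not confined to these 9 genes. In 6 of the 8 wider pathway lists described below the same 3 arrays had the lowest means, for example 7.22, 6.91 and 7.18 against 7.54 to 7.65 for the RAS and PI3K arms, whereas in the list of ligands they had the highest. Their red cell gene means were 8.15, 8.05 and 8.33, within or just under the 8.09 to 8.44 of the other 5. Their hepatocyte gene means, 6.84, 7.88 and 6.94, were above those of all others but WT replicate 3, at 7.23. The part of this in the low values of single arrays was not tested. A fit with the hepatocyte mean as a covariate was run for the genotype differences in TER119- cells. It gave 0.05 for Epor, -0.13 for Kit, 0.10 for Pim1 and 0.26 for Socs2. Without the covariate these were 0.33, 0.23, 0.17 and 0.44.

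Without those 3 arrays the fraction differences of Epor were 2.82 in WT and 2.91 in KO-labelled cells, those of Kit -2.97 and -3.08, and those of Pim1 4.95 and 4.96, all still called. The genotype differences in TER119- cells became 0.07 for Epor, -0.10 for Kit and -0.01 for Pim1, and 0.48 for Socs2. That of Cish became 0.08, against -0.12 with all arrays, and was not called in either fit. Without them 7 of the 9 genes passed between the fractions in WT and 7 in KO-labelled cells, where 50.1% and 52.9% of all genes did. By genotype 1 passed in TER119+ cells, where 1.62% of all genes did, and 0 in TER119- cells.

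**Figure D4:**
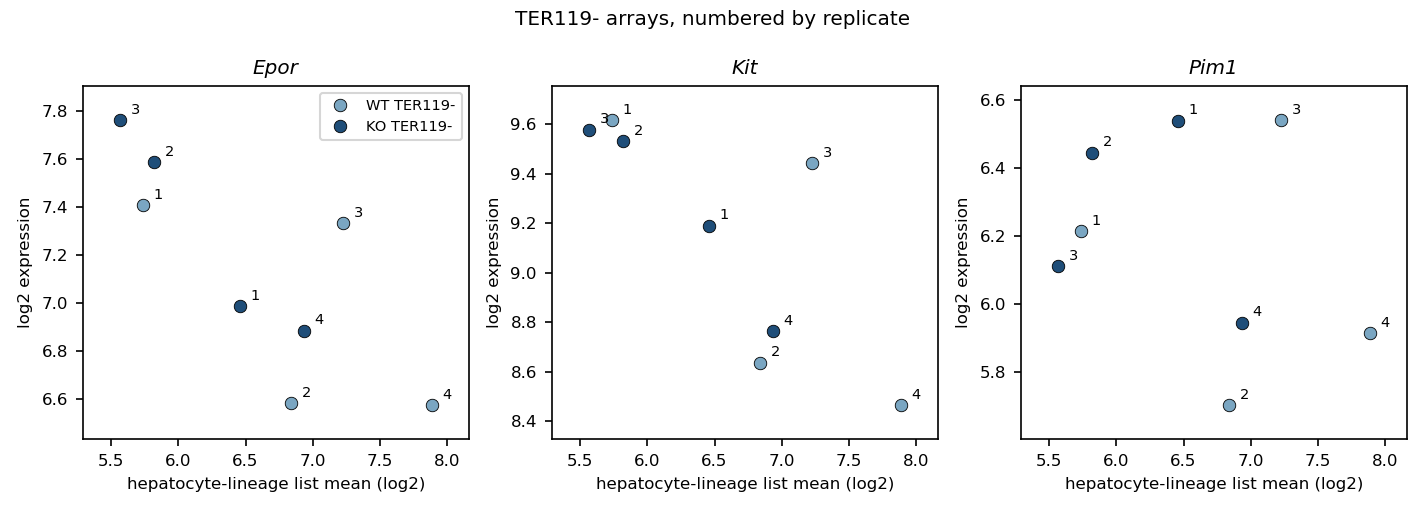
Log2 expression of Epor, Kit and Pim1 (vertical axes, not from 0) in the 8 TER119- arrays against the mean log2 level of 20 hepatocyte-lineage genes (horizontal axes); points are single arrays, numbered by replicate. WT replicates 2 and 4 and KO-labelled replicate 4 hold the 3 lowest values of Kit (8.47 to 8.77), while WT replicate 3, with a hepatocyte mean of 7.23, holds 9.44.

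The wider pathway was read from 8 lists with 119 measured genes, also chosen with earlier results of these data known. Between the fractions in WT cells 42.9% of them were higher and 21.8% lower in TER119+, where 23.5% of all genes were higher and 29.1% lower. A list in which about 52.6% of members passed is at the level of all genes, and no list was tested as a whole. Among other growth factors and ligands, 13 of 14 were measured, and in WT cells 5 were higher and 2 lower in TER119+. The insulin-like growth factor genes Igf2 and Igf1 were higher by 4.57 (SE 0.27) and 2.01 (SE 0.15). The cytokine genes Lif and Il6 were lower, at -0.53 and -0.46, but neither passed without the 3 arrays above (-0.29 and -0.39).

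Of 17 related receptors 6 were higher and 4 lower. The receptor genes Lifr (3.25, SE 0.21), Ghr (2.26, SE 0.22), which binds growth hormone, and Csf1r (2.18, SE 0.22), which marks macrophages, led the rises. Flt3 (-2.06, SE 0.21) of early progenitors, Csf3r (-1.89, SE 0.24) of granulocytes and Il7r (-1.60, SE 0.12) of lymphoid precursors led the falls. Of the 17, 5 are also in the marker lists of other cell types, whose levels differed between the fractions as given above.

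The other JAK and STAT genes gave 3 higher and 1 lower of 6. Stat2 was higher by 1.09, Tyk2 by 0.95 and Stat3 by 0.60, while Stat4 was -1.56. Stat3 did not pass without WT TER119- replicate 2 (0.50) or 4 (0.42), without WT TER119+ replicate 2 (0.55) or 4 (0.53), or without the 3 arrays above (0.18). Among the other SOCS, PIM and PIAS genes, which inhibit cytokine signals or, for PIM, act as survival kinases, 5 of 11 were higher and 2 lower. Pias4 differed by 2.14, Pim2 by 0.66 and Pias3 by 0.50, whereas Socs1 (-1.11) and Socs5 (-0.56) were lower. The inhibitor genes therefore did not move in a single direction.

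Among the adaptors and phosphatases of both receptors 11 of 25 were higher and 9 lower. Dok1, an adaptor that damps RAS signalling, was higher by 4.22 (SE 0.10), and the adaptor genes Grb10 and Grb7 by 2.55 (SE 0.21) and 2.16 (SE 0.17). Stap1, an adaptor that binds KIT, fell by 4.73 (SE 0.14). Ptprc, which encodes the leukocyte phosphatase CD45, fell by 3.03 (SE 0.12), and the docking protein gene Gab2 fell by 1.91 (SE 0.16). The SRC and TEC family kinase genes gave 3 higher and 4 lower of 8. Yes1 (1.46), Csk (1.02) and Src (0.68) were higher, and Btk (-2.50), Fgr (-1.26) and Tec (-1.15), which serve myeloid and lymphoid cells, were lower. Neutrophil precursor genes moved with these falls, and their part was not tested.

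The RAS-MAPK and PI3K-AKT arms gave 10 higher and 2 lower of 20. The transcription factor gene Foxo3 was higher by 2.47 (SE 0.12), the kinase gene Map2k2 by 2.43 (SE 0.18) and the ERK phosphatase gene Dusp6 by 2.29 (SE 0.12), while Plcg2 (-1.91) and Nras (-0.73) were lower. Other reported targets of STAT5 and erythropoietin gave 8 higher and 2 lower of 19. The survival gene Bcl2l1, which encodes BCL-XL, was higher by 3.38 (SE 0.18), the stress gene Gadd45a by 3.38 (SE 0.09) and the cyclin gene Ccnd3 by 1.98 (SE 0.16). The repressor gene Bcl6 was -0.92 and the survival gene Bcl2 -0.63. The list's median difference was 0.25, against -0.09 over all genes.

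By genotype label these lists gave 0 calls in TER119- cells. In TER119+ cells 2 of the 119 genes passed, or 1.68%, near the 1.02% of all genes. Dok1 was 9.02, 8.76, 8.78 and 8.72 in WT and 8.05, 8.23 and 7.96 in KO-labelled TER119+ arrays, without overlap, and fell by 0.74 (SE 0.11, adjusted p = 0.000761). That call held under each of the 26 alternative settings, with adjusted p-values from 8.75e-05 to 0.0101. Pik3r1, which encodes the regulatory subunit of PI3-kinase, was 9.54, 9.48, 9.59 and 9.63 in WT and 8.80, 8.97 and 8.71 in KO-labelled arrays, also without overlap, and fell by 0.73 (SE 0.16, adjusted p = 0.0430). The Pik3r1 call was lost in 13 of 26 settings, which included leaving out any 1 of the 7 TER119+ arrays, KO-labelled TER119- replicate 1, 2 or 3, or WT TER119- replicate 2, and its adjusted p ranged up to 0.238.

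Some genes followed Epor and Kit closely over the 15 arrays. Likeness was measured as the root mean square distance between log2 values after each gene's own mean was subtracted, and a smaller distance means a closer pattern. The closest to Epor were Tspan33 (0.09), Slc43a1 (0.11), Fam210b (0.11), Ptdss2 (0.14) and Map4k5 (0.16), where the median gene lay at 1.64. The closest to Kit were Myb (0.19), 4933431E20Rik (0.23), Apbb1ip (0.25), Prps2 (0.25) and Ppa2 (0.26), with a median of 1.38. Since the fraction accounts for most of the variance, these are largely genes with the same difference between fractions: that of Tspan33 was 3.32 and that of Myb -2.57.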

How the data were processed

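The files hold log2 expression per probe set for 15 arrays, deposited by the authors. The submitters' processing notes name RMA and Partek, without versions. RMA subtracts background, gives arrays a shared distribution and summarises probes, which compresses differences of dim genes. No detection calls were used. Of 35399 probe sets, 21789 had 1 gene symbol in the platform's table, 1621 several and 11989 none; the probe set of highest mean stood for each of 19938 genes. A mean per title group was fitted with limma 3.58.1 in R 4.3.3 (11 residual and 4.91 prior degrees of freedom), without filter or covariate, and tested on simulated data first. Intervals are 95%, errors of levels SDs. The number of arrays limits the precision.

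Named were all members, up to 3 genes a direction with the largest WT fraction differences per list, every listed gene past a genotype threshold, fixed ligands and markers, and the 5 genes most like Epor and Kit. The members and lists were chosen with earlier results of these data known. Alternatives covered scaling, probe sets, filter, block, sex, a hepatocyte covariate centred within each fraction, weights and leaving out arrays. Promoters and names come from RefSeq GRCm38.p6; protein sequences were not used here.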

Additional observations from a re-analysis of the deposited data

Results flagged for a closer look

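In 39 groups of 4 arrays (13 genes), 2 had an array far from the other 3; chance alone gives about 1 in 20 groups. Jak2 stood at 8.87 in WT TER119- replicate 4 against 9.60 to 9.74 in the others; without it the WT difference between fractions was 0.50 in place of 0.70 and stayed called. Stat5b stood at 6.50 in KO-labelled TER119- replicate 4 against 7.07 to 7.11; without it the KO-labelled difference between fractions was 0.01 in place of 0.16, uncalled in both. Both arrays are among the 3 that stand apart.

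The genotype effect on Dok1 differed between the fractions, at -0.71 (SE 0.15, adjusted p = 0.0401): Dok1 was lower by 0.74 in KO-labelled TER119+ cells and differed by -0.03 in TER119- cells, where it lay between 4.37 and 4.72 in all 8 arrays, below the array medians of 5.28 to 5.43. The call was lost in 18 of 25 alternative settings, which included leaving out any 1 array other than KO-labelled TER119+ replicate 2 or KO-labelled TER119- replicate 4, with adjusted p-values over all settings from 0.00869 to 0.190.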

How the results depend on the processing

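The direction of each called member difference held in every alternative run but 1: the WT fraction difference of Socs3 was -0.12 on its other probe set, chosen as an alternative after seeing the data. Over the alternatives for the 9 genes, 1125 re-estimates kept their side of the threshold, 19 passed newly, 16 no longer passed and 1 turned; 31 of 771 re-estimates of uncalled differences changed sign. With the mean of both probe sets Socs3 in WT (0.22, adjusted p = 0.0915) and Socs2 in KO-labelled cells (0.32, adjusted p = 0.0645) lost their fraction calls.

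In TER119+ cells the count of members differing by genotype went from 1 to 0 with the replicate block, with arrays centred on their medians, with the mean of all probe sets and with sex as a factor, and was 0 to 1 when each array was left out. Over all genes that comparison gave 203 calls, but 350 in a fit of each pair of groups, 386 with array weights and 323 without the 3 TER119- arrays that stand apart (leave-one-out 148 to 226). In TER119- cells all genes gave 17 calls (15 higher, 2 lower; 17 and 0 with median centring), but 4 in a fit of each pair, 31 with array weights, 7 with sex, 10 with the hepatocyte covariate and 8 without the 3 arrays. Leaving out 1 array gave 8 to 24, with 11 without KO-labelled TER119+ replicate 1 or 2 or TER119- replicate 2, and 8 without KO-labelled TER119- replicate 3 or WT TER119- replicate 2. The interaction gave 87 calls, and 56 among genes above the median level. The WT fraction comparison gave 10486 calls, of which 6925 were at least 1.5-fold. The cause of these shifts was not tested.

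Correlations between the deviations of same-numbered arrays from their group means ran from -0.38 to 0.65. With so few arrays in a group they cannot settle whether the numbers pair the samples. By their sex-linked genes all 4 WT TER119- arrays were male, whereas 2 of the 4 WT TER119+ arrays were female. The numbers therefore cannot all pair WT fractions of the same suspension. With the replicate block in limma Socs2 differed by 0.71 in TER119+ cells (adjusted p = 0.0693) and no other member call changed. Dim signals (Cish, Socs3, Epo) are compressed, and the number of arrays limits what could be seen.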
